A study of Mus musculus with 24 samples.

Results

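The genes of HIF oxygen sensing were followed in oocytes grown in low and in high oxygen. They were taken by name as Hif1a, Epas1, Arnt, Egln1, Egln2, Egln3, Hif1an and Vhl, and 7 of the 8 were found among the 16572 gene names of the expression table. Epas1, which encodes another HIF alpha subunit, was not analysed here. The oocytes came from dissociated ovaries of 7-day-old mice, labelled C57BL/6 Barb (Babr in the text of the study) and described in the methods as a cross with SV129, and were all grown without follicles, on gelatine-coated plates, in medium that held FSH and EGF, at first beside theca-like cells. IV 5% O2 oocytes had 9 days in 5% oxygen with fresh medium every 24 hours, and IV 20% O2 oocytes had 14 days in 20% oxygen with fresh medium every 48 hours. The labels give class IV, the largest class, a diameter of 60 to 70 μm in both conditions, although the study's text describes the 20% O2 oocytes as somewhat smaller. RNA depleted of ribosomal RNA was sequenced from pools of oocytes, with 2 libraries per condition. Of the 24 samples of the series, the 4 RNA-seq libraries are used here.

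The authors deposited 1 value per gene and condition, in which the 2 libraries are pooled. No value below therefore has an SD, and no difference has a p-value or a replicate check. Levels are given as RPM, the reads of a gene for every 1000000 reads of its column, and, wherever genes are compared with each other, as RPM per kb of exon. The depth was 132185258 reads for IV 5% O2 and 40875358 reads for IV 20% O2, so that 3 reads, the limit that a count of 0 allows, correspond to 0.0227 RPM and 0.0734 RPM. Intervals are exact 95% intervals on the reads. They cover counting error only and compare these libraries, not the conditions. Log2 differences are IV 5% O2 minus IV 20% O2 on log2(RPM + 1), which understates the difference of low genes. Intervals of a difference belong to the log2 ratio of RPM without the added 1. Oxygen, culture time, medium changes and, by the study's text, oocyte diameter differ together between the columns and cannot be told apart, and neither can fewer oocytes rich in a transcript and less of it in each oocyte.

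HIF is a transcription factor made of an oxygen-labile alpha subunit and the stable beta subunit ARNT. When oxygen is present, the EGLN enzymes (also called PHD proteins) hydroxylate prolines of the alpha subunit, the VHL protein then binds it, and a ubiquitin ligase marks it for the proteasome. A further hydroxylase, FIH, the product of Hif1an, modifies an asparagine and so blocks binding of the coactivators p300 and CBP. Oxygen thus acts mainly on the HIF alpha protein, which was not measured here, and the values below are of transcripts. The ovary is a tissue of low oxygen, and the growing oocyte depends on its follicle cells for much of its glucose use.

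None of the 7 genes was 2-fold apart between the columns on the log2(RPM + 1) scale, in either direction, against 18.7% of all 14704 genes compared that were at least 2-fold higher in IV 5% O2 and 9.22% that were at least 2-fold lower. Arnt and Egln2 were higher in IV 5% O2, and Hif1an, Vhl and Egln3 were lower. Hif1a and Egln1, the most abundant of the 7 per length, had log2 differences of only -0.17 and -0.04 with the columns as deposited. Thus 5 of 7 had a lower value in IV 5% O2, where 37.4% of all genes compared did, and the same 5 lay below the median gene. The median log2 difference was -0.17 over the 7 genes and 0.26 over all genes compared. Compared genes are those with a mean of at least 1 RPM, which all 7 reach, but Egln3 passed only through its level in IV 20% O2. Each of the 7 kept its direction when the columns were scaled by their median ratio or by quantiles, which shift the median of all genes by -0.29 and -0.20. The 2-fold count did not hold there: Egln3 (-1.09 by median ratio, -1.27 by quantiles) and Hif1an (-1.12 and -1.02) were then at least 2-fold lower at 5% oxygen. Among all genes compared, 12.0% were then at least 2-fold higher and 13.6% lower by median ratio, and 12.2% and 12.5% by quantiles.

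**Figure D1:**
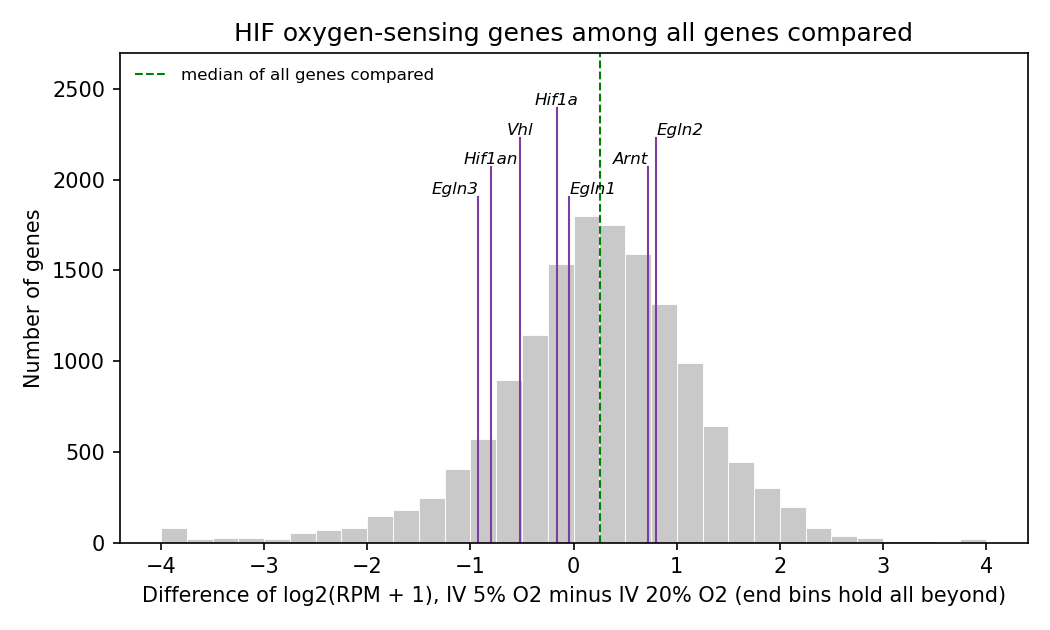
Number of genes (y axis) by difference of log2(RPM + 1), IV 5% O2 minus IV 20% O2 (x axis), over the 14704 genes compared, with the 7 HIF oxygen-sensing genes as vertical lines and the median of all genes, 0.26, dashed. The 7 genes sit between -0.93 (Egln3) and 0.80 (Egln2), and 5 of them lie left of the median.

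Hif1a encodes the HIF-1 alpha subunit and occupies chromosome 12 of GRCm38, bases 73901375 to 73947530. It reached 344 RPM (45461 reads) at 5% oxygen, against 386 RPM (15768 reads) at 20% oxygen. This is a log2 difference of -0.17 (interval -0.19 to -0.14). Set against the median gene it was -0.42, and 30.5% of all genes compared were at or below it. As deposited the values are close, with the 20% O2 column 1.12 times as high. Hif1a was at -0.48 by median ratio and at -0.37 by quantiles, both below that interval. Of its exons, 5.6% are shared with the antisense gene Gm15283 and 2.5% with Gm49321 on the same strand, and although the libraries kept the strand of the RNA, whether the counting used it is not given in the sources used here. Arnt, the gene of the beta subunit (chromosome 3, 95434388 to 95497240), reached 74.3 RPM (9827 reads) at 5% oxygen, against 44.7 RPM (1827 reads) at 20% oxygen. The log2 difference of Arnt was 0.72 (interval 0.66 to 0.81), and it was 0.46 above the median gene. By median ratio Arnt was at 0.41, and by quantiles at 0.53. The subunits thus went opposite ways. Per kb of exon, Hif1a was 11.7 times as abundant as Arnt in IV 20% O2 (interval 11.2 to 12.3) and 6.28 times in IV 5% O2 (interval 6.15 to 6.42). Hif3a, another alpha subunit gene with products that can restrain HIF, reached 5.88 RPM at 5% oxygen against 11.4 RPM at 20% oxygen, a log2 difference of -0.85, or -1.13 by median ratio and -1.01 by quantiles. Per kb, Hif1a made up 98.5% of the Hif1a and Hif3a transcripts in IV 5% O2 and 97.5% in IV 20% O2.

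**Figure D2:**
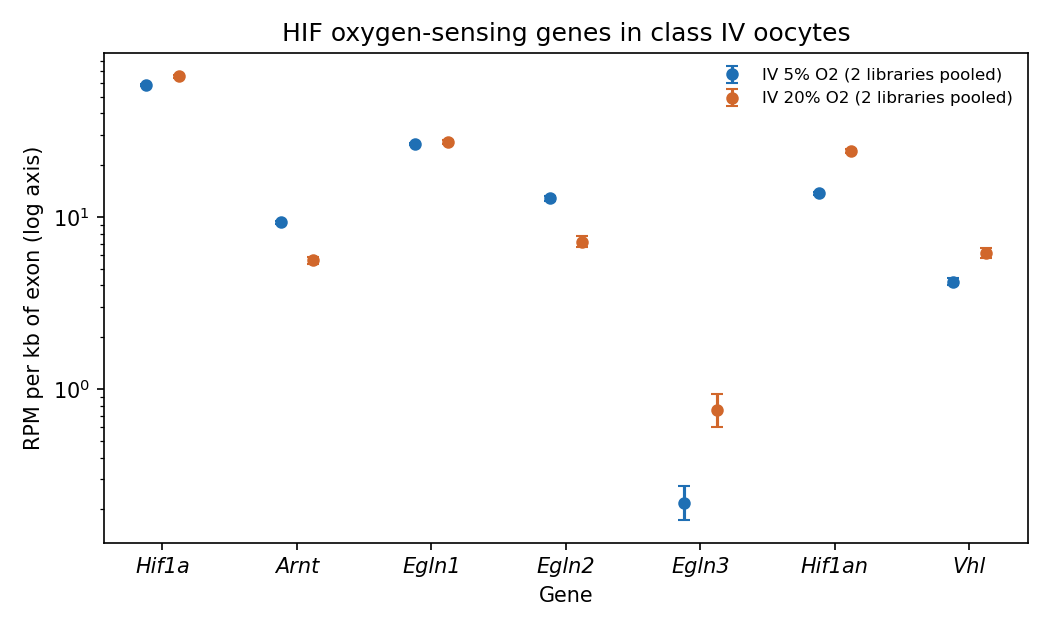
RPM per kb of exon (y axis, log scale) of the 7 HIF oxygen-sensing genes in the pooled IV 5% O2 (blue) and IV 20% O2 (orange) columns, with exact 95% counting intervals as bars, many of which are smaller than the points. Hif1a is highest with 58.3 and 65.4, and Egln3 is lowest with 0.219 and 0.754.

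The 3 Egln genes encode the prolyl hydroxylases that measure oxygen, and each of them gave a different picture. Egln1 encodes PHD2, the main oxygen sensor in most cells, and lies on chromosome 8 from 124908587 to 124949324. It reached 95.04 RPM (12563 reads) at 5% oxygen, against 97.9 RPM (4002 reads) at 20% oxygen. Its log2 difference was -0.04, and the counting interval of -0.09 to 0.01 includes 0. A difference was therefore not detectable at this depth with the columns as deposited, but Egln1 was at -0.36 by median ratio and at -0.24 by quantiles, both below that interval. Egln2, the gene of PHD1 (chromosome 7, 27158658 to 27166802), reached 35.8 RPM (4735 reads) at 5% oxygen, against 20.1 RPM (822 reads) at 20% oxygen. The log2 difference of Egln2 was 0.80 (interval 0.73 to 0.94), the highest of the 7 genes, and 25.5% of all genes compared were at or above it. By median ratio Egln2 was at 0.49, and by quantiles at 0.64. Egln3 encodes PHD3 and is known as a target that HIF induces in many cell types. Egln3 (chromosome 12, 54178981 to 54203860) reached 0.583 RPM (77 reads) at 5% oxygen, against 2.01 RPM (82 reads) at 20% oxygen, above the limit of a count of 0 in both columns. Its log2 difference was -0.93, while its RPM without the added 1 was 3.44 times as high in IV 20% O2, a log2 ratio of -1.78 (interval -2.25 to -1.32). It was the lowest in level of the 7. Its difference was the largest in size as deposited, but not by median ratio (Hif1an -1.12) nor with a pseudocount of 5, where Egln3 was at -0.33 and Hif1an at -0.78. At or below Egln3 were 10.2% of all genes compared.

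Per kb of exon, the Egln genes summed to 39.5 RPM at 5% oxygen and 35.2 RPM at 20% oxygen, so the sum was similar but its makeup was not. Egln1 made up 67.0% (interval 66.3 to 67.8) of it in IV 5% O2 and 77.4% (interval 76.2 to 78.7) in IV 20% O2. The share of Egln2 was 32.4% (interval 31.7 to 33.2) in IV 5% O2 and 20.4% (interval 19.2 to 21.7) in IV 20% O2. Egln3 held 0.555% (interval 0.438 to 0.693) in IV 5% O2 and 2.14% (interval 1.71 to 2.65) in IV 20% O2. The intervals of the columns do not overlap for any of the 3 genes.

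**Figure D3:**
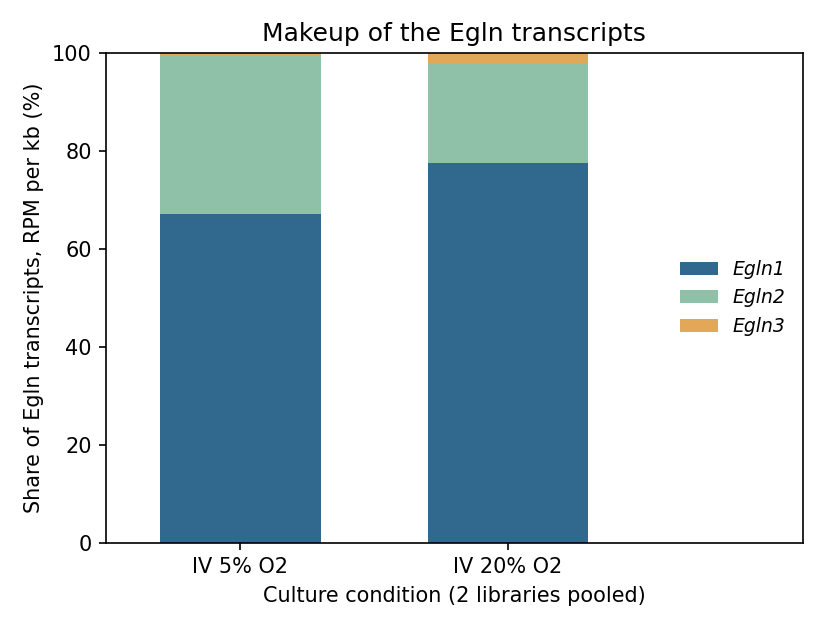
Share (y axis, %) of Egln1, Egln2 and Egln3 in their summed RPM per kb of exon, in the pooled IV 5% O2 and IV 20% O2 columns (x axis). Egln1 is the largest part in both, and Egln2 takes 32.4% in IV 5% O2 against 20.4% in IV 20% O2.

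The Egln promoters are shown because these related genes differed in direction, and because HIF binds DNA at the core letters ACGTG or GCGTG. The 250 bases before each start site were taken from RefSeq on GRCm38.p6, all on the minus strand, and read 5′ to 3′ toward the gene. They cover chr8:124949255-124949504 for Egln1, chr7:27166803-27167052 for Egln2 and chr12:54203875-54204124 for Egln3. Capitals mark these core letters on either strand, so that the reverse reads CACGT or CACGC.
Egln1: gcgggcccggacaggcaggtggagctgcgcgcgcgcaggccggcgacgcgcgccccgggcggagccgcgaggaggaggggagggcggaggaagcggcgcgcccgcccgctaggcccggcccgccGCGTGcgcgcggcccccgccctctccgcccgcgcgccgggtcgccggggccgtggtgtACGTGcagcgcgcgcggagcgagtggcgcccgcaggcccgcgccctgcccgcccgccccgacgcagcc
Egln2: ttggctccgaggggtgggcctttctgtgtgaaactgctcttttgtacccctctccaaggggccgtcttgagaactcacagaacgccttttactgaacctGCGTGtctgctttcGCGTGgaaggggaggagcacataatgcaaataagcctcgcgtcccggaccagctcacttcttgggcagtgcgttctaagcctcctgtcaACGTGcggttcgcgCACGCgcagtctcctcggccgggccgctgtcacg
Egln3: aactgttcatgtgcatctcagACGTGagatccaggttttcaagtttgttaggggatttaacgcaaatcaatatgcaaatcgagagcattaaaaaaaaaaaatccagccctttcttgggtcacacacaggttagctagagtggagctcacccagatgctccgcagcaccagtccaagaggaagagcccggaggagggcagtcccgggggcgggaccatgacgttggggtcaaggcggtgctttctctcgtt
The Egln1 window holds GCGTG at -126 and ACGTG at -68 from the start site. The Egln2 window holds 4 matches, and a second annotated Egln2 start has 1. The Egln3 window holds 1 match, at -229. Of the other genes, the window of Hif1a holds 3 matches, of which 2 are the forward and reverse reading of CACGTG, that of Arnt holds 1, and those of Hif1an and Vhl hold 0. Thus 5 of 7 genes have a match. Among all 32851 RefSeq promoters cut to the same length, 38.6% hold at least 1 match, 16.6% hold ACGTG and 28.2% hold GCGTG. These letters are a description of the windows and do not show binding. Both Egln2, higher in IV 5% O2, and Egln3, lower there, have matches.

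Hif1an encodes FIH, the asparaginyl hydroxylase of HIF alpha, and lies on chromosome 19 from 44562850 to 44576274. It reached 90.5 RPM (11967 reads) at 5% oxygen, against 159 RPM (6494 reads) at 20% oxygen. This is a log2 difference of -0.80 (interval -0.86 to -0.77). Set against the median gene it was -1.06, and 12.1% of all genes compared were at or below it. Per kb, Hif1an stood at 0.883 of the level of Egln1 in IV 20% O2 (interval 0.849 to 0.919) and at 0.518 in IV 5% O2 (interval 0.505 to 0.531). The transcripts of the asparaginyl and the main prolyl hydroxylase were therefore near each other in level in IV 20% O2 and further apart in IV 5% O2. The enzymes themselves were not measured.

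Vhl, the gene of the protein that recognises hydroxylated HIF alpha (chromosome 6, 113623959 to 113631633), reached 12.6 RPM (1665 reads) at 5% oxygen, against 18.5 RPM (755 reads) at 20% oxygen. The log2 difference of Vhl was -0.52 (interval -0.68 to -0.43), and it was -0.78 relative to the median gene. By median ratio Vhl was at -0.82, and by quantiles at -0.67. Of its 4 partners in the ubiquitin ligase, Elob, Eloc and Rbx1 were lower in IV 5% O2 and Cul2 was higher. Elob, which encodes elongin B, reached 9.05 RPM at 5% oxygen against 30.7 RPM at 20% oxygen. Its log2 difference of -1.66 (interval -1.88 to -1.65) was the only one of the 4 past 2-fold as deposited, where 9.22% of all genes compared were at least 2-fold lower. Of the exon windows of Elob, 14.2% of 50 bases and 1.64% of 100 bases are repeated in the genome. Eloc, the gene of elongin C that VHL contacts directly, had 142 and 236 RPM in the same order, a log2 difference of -0.73. Rbx1, the RING subunit, reached 43.1 RPM at 5% oxygen against 79.0 RPM at 20% oxygen, a log2 difference of -0.86. Rbx1 was past 2-fold by median ratio (-1.17) and by quantiles (-1.05), and Eloc by median ratio (-1.05), where 13.6% (median ratio) and 12.5% (quantiles) of all genes compared were at least 2-fold lower. The scaffold gene Cul2 had 41.6 and 31.0 RPM, or 0.41 on the log2 scale and 0.10 with median-ratio scaling. The median over the 4 was -0.80, against 0.26 over all genes compared. Relative to Vhl, the Eloc transcript was 11.2 times as abundant per kb in IV 5% O2 (interval 10.6 to 11.7) and 12.7 times in IV 20% O2 (interval 11.7 to 13.7).

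**Figure D4:**
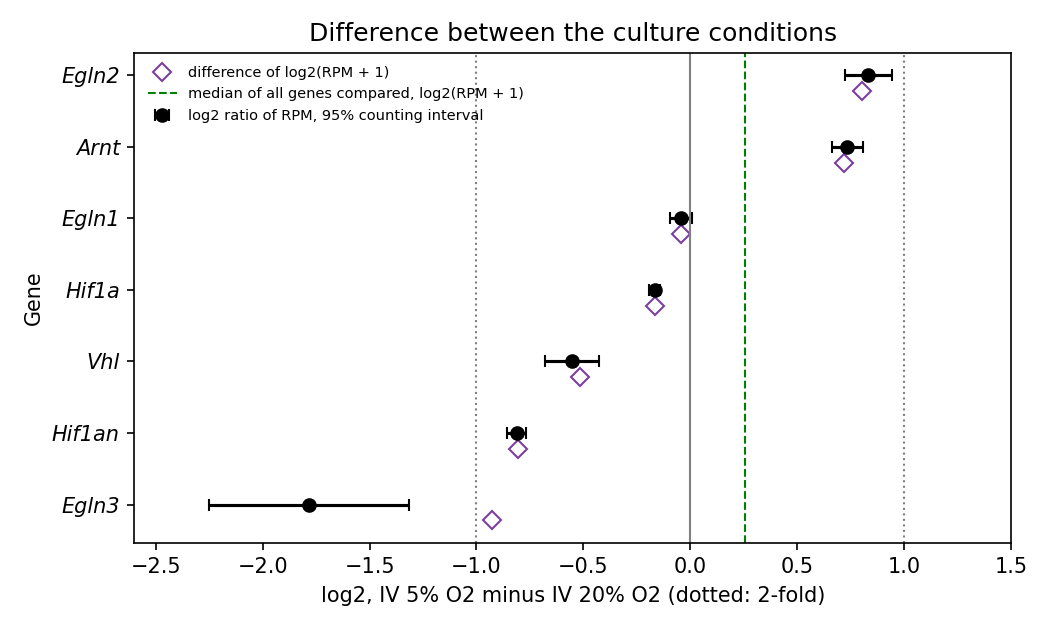
Log2 ratio of RPM with its exact 95% counting interval (black) and difference of log2(RPM + 1) (open diamonds), IV 5% O2 minus IV 20% O2 (x axis), for the 7 HIF oxygen-sensing genes (y axis), with the median of all genes compared dashed and 2-fold dotted. Egln2 and Arnt lie above 0, the interval of Egln1 includes 0, and Egln3 is at -1.78 without the added 1 and at -0.93 with it.

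The order of the 7 genes by RPM per kb was Hif1a, Egln1, Hif1an, Egln2, Arnt, Vhl and Egln3 in IV 5% O2, where no neighbours had overlapping intervals. The levels ran from 58.3 for Hif1a over 26.4 for Egln1, 13.7 for Hif1an, 12.8 for Egln2, 9.28 for Arnt and 4.203 for Vhl to 0.219 for Egln3. In IV 20% O2 the order was the same but for Vhl (6.16) and Arnt (5.58), whose separate intervals overlap while their ratio was 1.10 (interval 1.01 to 1.20). The ranks below Egln1 depend on which exons are counted, since Arnt has 8007 bases of exon over all its transcripts and 4325 in the longest. With the longest transcript, Arnt came to 17.2 RPM per kb in IV 5% O2, above Egln2 (17.0) and Hif1an (14.6).

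The genes nearest in level to Hif1a over both columns were Yap1 (352 and 397 RPM) and Hspa9 (348 and 365 RPM). In all, 7 genes lay within 0.1 of Hif1a on the log2(RPM + 1) scale in both columns. Nearest to Egln3 were Smim17 (0.590 and 1.96 RPM) and Saxo1 (0.537 and 2.03 RPM), among 25 such genes. A likeness over 2 columns says only that their values are near.

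The coactivators of HIF whose binding FIH blocks were lower in IV 5% O2. Ep300 reached 70.9 RPM at 5% oxygen against 152 RPM at 20% oxygen, a log2 difference of -1.09, and Crebbp had 136 and 349 RPM, a log2 difference of -1.35. Cited2, which competes with HIF alpha for these coactivators, had 16.2 and 20.6 RPM, a log2 difference of -0.33. Of these 3 genes, 2 were at least 2-fold lower and 0 were higher, where 9.22% and 18.7% of all genes compared were, and the median was -1.09. Among 9 other regulators of HIF alpha or of its hydroxylases, 2 were at least 2-fold higher and 0 lower (18.7% and 9.22% over all genes compared), with a median of 0.25, near the 0.26 of all genes compared, and of -0.07 by median ratio. The 2 were Fkbp8, which anchors PHD2 at membranes (87.4 and 26.3 RPM, log2 difference 1.70), and the chaperone gene Hsp90ab1 (495 and 203 RPM, log2 difference 1.28, or 0.96 by median ratio). The lowest were Siah1a, the gene of a ubiquitin ligase for EGLN proteins, with -0.15, and Rack1 with -0.05. At Siah1a, where the columns had 77.1 and 85.4 RPM, 25% of the 50-base stretches of exon are found again in the genome, so its value is less certain. Of its 100-base stretches, 3.74% are.

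Among genes that HIF is known to induce, 12 of 15 outside glycolysis and 7 of 8 of glucose use had a higher value at 5% oxygen, as did 62.6% of all genes compared. Relative to the median gene, 10 of 15 and 6 of 8 were higher. Among the 6 is Pgk1, at 0.260 beside 0.258 for the median gene. Of its exon windows, 69.5% of 50 bases and 62.1% of 100 bases are repeated in the genome, so its place is uncertain. Outside glycolysis, 5 of 15 genes compared were at least 2-fold higher and 2 were at least 2-fold lower, against 18.7% and 9.22% of all genes compared, and the median was 0.53. That median was 0.36 by median ratio, 0.27 by quantiles and 0.31 with a pseudocount of 5. Over all genes compared it was -0.03, 0.06 and 0.19 in these settings. The higher count was 3 by median ratio, 4 by quantiles and 2 with a pseudocount of 5. Of all genes compared, 12.0%, 12.2% and 8.17% were at least 2-fold higher in these settings. Of these genes, P4ha2 and Ndrg1 (1.68 and 0.856 RPM) passed the minimum mean only through the 5% column, and Adm (0.575 and 1.13 RPM) did not pass it. Bnip3, among the 5 at least 2-fold higher, has 42.0% of its 50-base windows and 15.9% of its 100-base windows repeated. P4ha1, a collagen prolyl hydroxylase gene, reached 46.9 RPM at 5% oxygen against 10.4 RPM at 20% oxygen, a log2 difference of 2.07. P4ha2, of the same family, had 4.33 RPM (572 reads) and 0.807 RPM (33 reads), a log2 difference of 1.56 that was 0.68 with a pseudocount of 5. The other way went Tfrc, the transferrin receptor gene, with 74.4 and 160 RPM (-1.09), and the heme oxygenase gene Hmox1, with 16.2 and 33.6 RPM (-1.01, or -0.86 with a pseudocount of 5). Among 8 genes of glucose use, 4 were at least 2-fold higher and 0 lower, beside the same 18.7% and 9.22%, with a median of 0.91. That median was 0.60 by median ratio, 0.74 by quantiles, 0.60 with a pseudocount of 5 and 0.51 with a minimum mean of 5 RPM. Ldha, the lactate dehydrogenase gene, had 91.0 RPM (12023 reads) and 2.37 RPM (97 reads), a log2 difference of 4.77. Of its windows, 14.3% of 50 bases and 0.331% of 100 bases are repeated. The hexokinase gene Hk2 had 5.72 and 1.42 RPM, or 1.47 on the log2 scale and 0.74 with a pseudocount of 5. The lowest were Eno1 with -0.14 and Pfkfb3 with 0.13, which became -0.18 when scaled by median ratio and -0.02 by quantiles. Of the windows of Eno1, 20.9% of 50 bases and 11.7% of 100 bases are repeated. Egln3, itself a gene of this kind, lay at -0.93 on this scale, and its log2 ratio without the added 1 was -1.78.

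**Figure D5:**
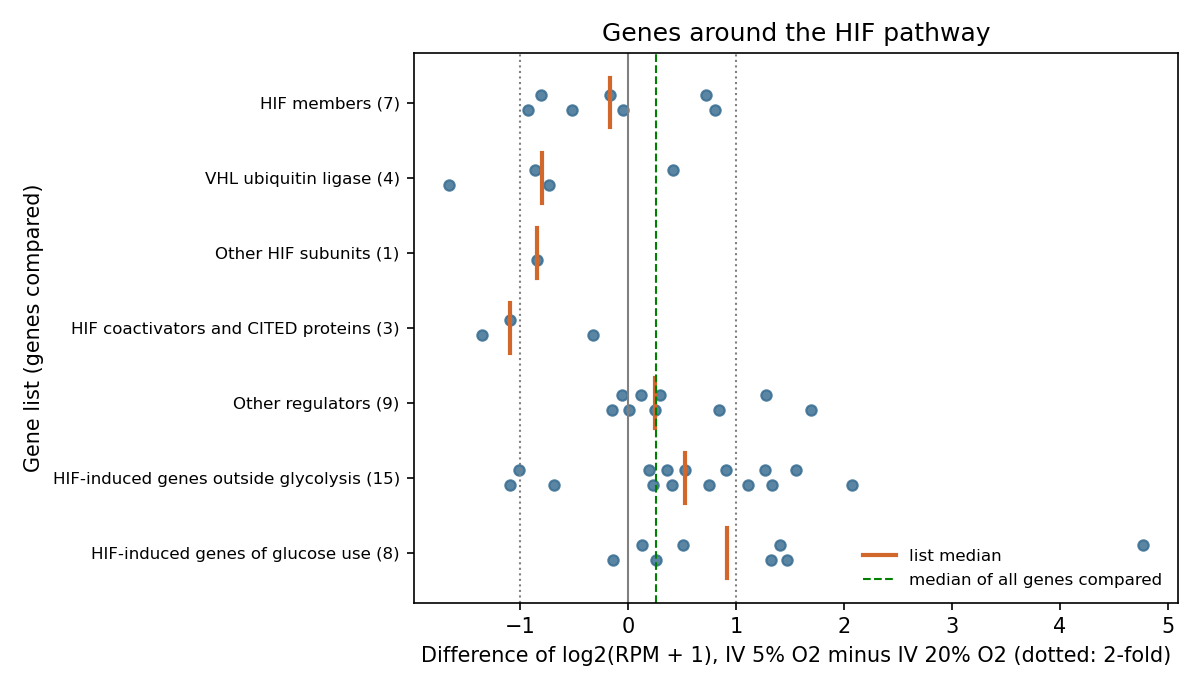
Difference of log2(RPM + 1), IV 5% O2 minus IV 20% O2 (x axis), of each gene compared (points) in the HIF oxygen-sensing genes and 6 lists around them (y axis, number of genes in brackets), with list medians in orange, the median of all genes compared dashed and 2-fold dotted. The medians run from -1.09 for the coactivators to 0.91 for the HIF-induced genes of glucose use.

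All 9 oocyte markers had reads in both columns, summing to 8842 RPM at 5% oxygen and 12279 RPM at 20% oxygen, which matches the labelled cell type. Of these 9, 3 were higher and 6 lower at 5% oxygen, and 8 lay below the median gene. At least 2-fold lower were 2 of them (Zp2 with -1.31 and Zp3 with -1.12), where 9.22% of all genes compared were. Markers of theca and stroma cells differed between the columns as well, where 62.6% of all genes compared were higher in IV 5% O2. Of 12 listed, 9 were in the table and all 9 were higher in IV 5% O2, 6 of 6 among those with a mean of at least 1 RPM, summing to 39.3 RPM against 4.99 RPM, while Vim, Col1a2 and Dcn had no reads in IV 20% O2. Of granulosa markers, 6 of 10 were in the table and 5 were higher in IV 5% O2, 4 of 4 past the minimum mean (41.3 against 29.8 RPM in sum), with Inha at 0 in IV 20% O2 and Fshr at 0 in IV 5% O2. Of endothelial markers, 5 of 7 were in the table and 4 were higher, 3 of 3 past the minimum mean (65.2 against 39.3 RPM), with Kdr at 0 in IV 20% O2. Cyp11a1, Postn, Vim and Dcn of the theca and stroma markers, and Inhba of the granulosa markers, pass that minimum only through the 5% column. Their direction was thus fixed by the filter. Only 2 theca and stroma markers reached 1 RPM in IV 20% O2. Of macrophage markers, 3 of 5 were in the table and 2 were higher in IV 5% O2, 1 of 2 past the minimum mean (17.9 against 21.1 RPM in sum), with Lyz2 at 0 in IV 20% O2. The part of such cells, or of the oocyte share, in the differences of the HIF genes and of the HIF-induced genes was not tested.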

How the data were processed

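RNA was measured in 2 pooled libraries per condition. TopHat was used by the authors for alignment to mm10 (TopHat2 2.0.9 in the submitters' processing notes). Reads were merged over the exons of an oocyte annotation in SeqMonk, and the authors deposited log2 values. They are named RPKM, but after the log2 was undone 99.9% and 100.0% of the values above 0 of the 5% and 20% O2 columns lay within 0.05 of whole multiples of 1 read, and they were taken as RPM without a correction for length. Genes with no read carry 0.9 of 1 read in the table and were put at 0. One further value column, of no mapped sample, was not used. The table has 16591 rows. For repeated names the row with the highest mean was kept.

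Genes were compared on log2(RPM + 1) if their mean reached 1 RPM, and 2-fold differences were counted. The limma fit planned for values per library was not run, since the columns are pooled. Intervals are Clopper-Pearson for ratios and shares, and exact Poisson for levels, at 95%. Exon lengths came from GENCODE M21 on GRCm38, where all 7 genes had exactly the table's coordinates. Windows of 50 and 100 bases, taken every 10 bases along the exons, were sought in 22 chromosome sequences. The study describes paired reads of 100 bases. No 100-base window of the 7 genes occurred elsewhere, and at most 2.88% of their 50-base windows did. Alternatives were pseudocounts of 0.1 and 5, no filter, a minimum mean of 5 RPM, scaling by median ratio or quantiles, and other lengths. The 2-fold counts and ratio intervals were tested on simulated reads. These held counting error only, so the test cannot show how the counts behave with a spread between libraries. The genes and lists were chosen with earlier results of these data known. Named genes are the 7, all of the short lists, the 2 highest and 2 lowest of each longer list, and the 2 genes nearest to Hif1a and to the one with the largest difference. A few others are named where they bear on a count. Statistics used scipy 1.17.1 and numpy 2.4.6 under Python 3.11.15, tables pandas 2.3.3, window searches numba 0.67.0 and figures matplotlib 3.10.9.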

Additional observations from a re-analysis of the deposited data

How the results depend on the processing

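No paired analysis was possible because each column joins both libraries of its condition, and leaving out a replicate was not run either.

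Directions of the 7 genes held under both scalings. A pseudocount or a filter cannot change a direction, so those alternatives were no check of it. The number of them at least 2-fold lower in IV 5% O2, 0, was 1 (Egln3) with a pseudocount of 0.1 and 2 (Egln3 and Hif1an) by median ratio and by quantiles alike, and none was 2-fold higher in any. Their median of -0.17 was -0.48 and -0.37 with these scalings, and -0.46 and -0.43 relative to the median gene. With a minimum mean of 5 RPM, Egln3 was not compared. Of the alternative values of single genes, 14 lay further from the reported value than the counting interval reaches to 1 side, with the direction kept, and 27 did not. Many of the 27 come from the filter settings, which repeat the reported value and could not move. Under both scalings every gene but Egln3 lay beyond that reach. Over all genes, 2753 were at least 2-fold higher and 1356 lower (67.0% higher). With a pseudocount of 0.1 these counts were 3326 and 1625, or 22.6% and 11.1% of all genes compared. They were 1202 and 706 with a pseudocount of 5, and 1691 and 917 when the mean had to reach 5 RPM. With median-ratio scaling they were 1758 and 2003 (46.7% higher), and by quantiles 1799 and 1831 (49.6% higher).

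The share of Egln1 was 60.6% in IV 5% O2 and 72.6% in IV 20% O2 with the longest transcript, and 72.3% and 81.6% without division by length. The share of Egln2 was 38.9% and 25.4% with the longest transcript, and 27.3% and 16.8% without division. By the longest transcript 5 of 7 genes kept their rank in IV 5% O2 and 4 in IV 20% O2; without division, 5 and 2 did. The planned share of Hif1a against Epas1 had no value, and Hif3a was taken instead after the data were seen. That share was 98.8% and 97.9% with the longest transcript, and 98.3% and 97.1% without division. Of the 7 genes, Egln3 had the fewest reads, 77 and 82, and the widest counting interval.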
